A study of Mus musculus with 72 samples.

Results

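Gene expression in mouse brain at 12 h of reperfusion after a stroke was compared with that in sham-operated brain, both under daily 12 h fasting. The libraries were those titled for 12 h of reperfusion in the 12 h fasting regimen (replicates 1 to 3) and for sham surgery in the same regimen (replicates 1 to 3), which makes 6 of the 72 libraries of the series. The mice were C57BL/6 animals aged 7 months that had spent 4 months on a schedule of 12 h without food each day (IF12), so that the sham group carried the same diet, strain and age as the injured group. Stroke was induced on 1 side of the brain by occlusion of the middle cerebral artery (MCAO) for 1 h. The tissue was a mid-coronal slice of the injured hemisphere, in which infarcted and spared regions and every cell type are mixed, and its purified mRNA was sequenced. The other libraries covered 3, 24 and 72 h of reperfusion, ischemia that was not followed by reperfusion, and 3 further regimens. These were free access to food (AL), fasting on alternate days (EOD) and daily fasting for 16 h (IF16). Nothing in the labels says that replicates were separate animals, so that the p-values measure only how far these samples spread, and that spread may be technical.

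Occlusion of the middle cerebral artery starves the striatum and the overlying cortex of oxygen and glucose. Cells that survive the first hours are known to switch on immediate early genes and chaperones, astrocytes and microglia take on reactive states, and chemokines and matrix proteases open the way for blood leukocytes, while neurons of the core lose their transcripts. In a slice of mixed tissue, fewer cells of a type and less RNA per cell cannot be told apart.

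Levels are given as library-scaled read counts (CPM, by TMM), and differences as log2 fold changes with their standard error from edgeR's quasi-likelihood test with Benjamini-Hochberg adjustment over 16426 genes. A gene was called at an adjusted p under 0.05. The 6 libraries held 19333084 to 24487231 counted reads and 19956 to 20678 genes with a read, and 2.48% to 4.37% of their reads were mitochondrial. The 12 neuronal markers were all detected, at a summed 10097 to 12484 CPM in the sham group and 9959 to 12337 CPM at 12 h, so the defining markers of the labelled tissue were present.

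A library in each group stood apart from the others of their group. Among 14467 genes with a mean of at least 1 CPM over the 18 IF12 libraries, sham replicate 1 had 374 genes at least 2-fold below the mean of the other sham libraries, against 33 and 10 for replicates 2 and 3. It was low in choroid plexus markers, with a median of -1.34 on the log2 scale against the sham mean, where replicates 2 and 3 were at 0.58 and 0.68, and high in thalamic markers at 0.40 against -0.23 and -0.21. At 12 h, replicate 1 had 335 genes at least 2-fold above the sham mean and 100 below, replicate 2 had 236 and 120, and replicate 3 had 97 and 19. Of the genes that were 2-fold above sham in any 12 h library, 314 were so in 1 library, 78 in 2 and 66 in all 3, and of those 2-fold below, 182 were so in 1 library, 21 in 2 and 5 in all 3. The 12 h group was therefore not uniform, and values are given by library below.

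**Figure D1:**
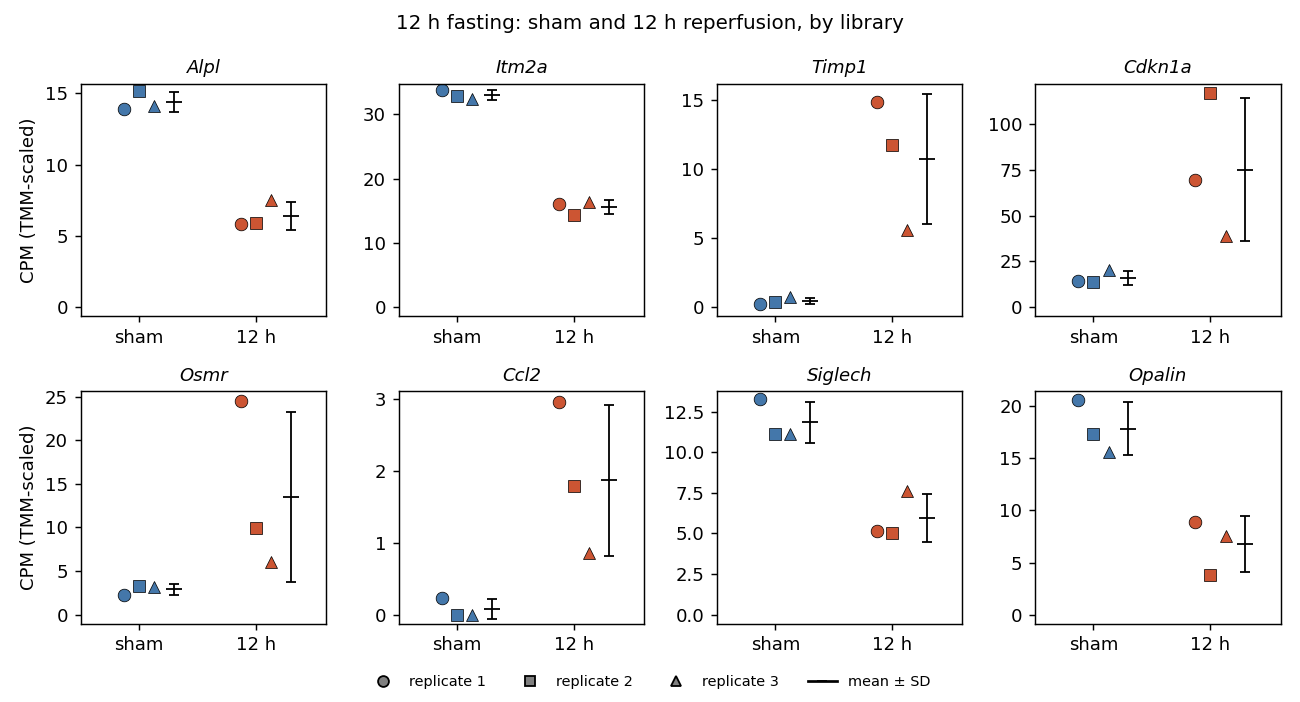
CPM of 8 genes in the 3 sham (blue) and 3 12 h (red) libraries of the 12 h fasting regimen; symbols mark the replicate number and the bars the mean ± SD (n = 3). Alpl and Itm2a, the called genes, are tightly grouped at both stages, whereas Timp1, Cdkn1a, Osmr and Ccl2 differ several-fold among the 12 h libraries while staying above all sham libraries.

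At 12 h of reperfusion, 2 genes passed the test, and both were lower than in the sham group: Alpl and Itm2a. That was 0.0122% of the 16426 genes tested, and no gene was called higher. Alpl encodes tissue-nonspecific alkaline phosphatase, a membrane enzyme that removes phosphate from extracellular substrates. It lies on chromosome 4 from 137741733 to 137796384 on the minus strand (GRCm38, GENCODE M21). Its level was 13.9, 15.2 and 14.1 CPM in the sham libraries and 5.8, 5.88 and 7.51 CPM at 12 h. All 3 values at 12 h lay well below the lowest sham value, and the mean fell from 14.4 ± 0.727 to 6.4 ± 0.965 CPM (SD, n = 3 each; log2 fold change -1.17 ± 0.17, adjusted p 0.0299).

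Itm2a encodes a small transmembrane protein and is one of the endothelial markers examined. The gene lies on chromosome X from 107397099 to 107403376 on the minus strand. Its level was 33.8, 32.8 and 32.4 CPM in the sham libraries and 16, 14.3 and 16.4 CPM at 12 h, so the groups did not overlap and each was narrow. The mean fell from 33 ± 0.681 to 15.6 ± 1.12 CPM (log2 fold change -1.08 ± 0.16, adjusted p 0.0299). The other 10 endothelial markers were not called, and the median over the 11 was 0.03. Leaving out any 1 of the 6 libraries ended both calls. Without 12 h replicate 1, 2 or 3 the adjusted p of Alpl was 0.121, 0.346 and 0.0572 and that of Itm2a 0.121, 0.346 and 0.0879, and without sham replicate 1, 2 or 3 that of both genes was 0.101, 0.152 and 0.168. The log2 fold change stayed between -1.31 and -1.11 for Alpl and between -1.13 and -1.02 for Itm2a in these fits.

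The test used sets how many genes were called. At an unadjusted p under 0.05, 623 genes were higher (3.79%) and 685 lower (4.17%). The 3 values at 12 h all lay above the 3 sham values in 1630 genes (9.92%) and below them in 1460 (8.89%). The counts of list members given below stand against these shares of all genes tested. DESeq2 on the same libraries called 100 genes, 43 higher and 57 lower, and limma with library weights called 817, 341 higher and 476 lower. Of the 100 DESeq2 calls among 16426 genes, 30 belonged to the 611 tested genes of the lists, 24 higher and 6 lower. The lists were chosen with earlier results of these data known, so this count is no independent evidence about them. Of these list members edgeR called only Itm2a, and the others that are named below are given as values.

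Several genes followed closely after the called pair. Garem2, an adaptor of receptor tyrosine kinase signalling, was at 25.9, 22.7 and 25.7 CPM in the sham libraries and 14.6, 11.2 and 15 at 12 h (log2 fold change -0.87 ± 0.14, adjusted p 0.0737). Acer2, an alkaline ceramidase of the Golgi, was at 7.5, 7.31 and 10.2 CPM and then 23.3, 23.3 and 22.9 (1.47 ± 0.26, adjusted p 0.109). Adgrl4, an adhesion receptor of endothelial cells, was at 13.1, 14.5 and 13.5 CPM and then 24, 30.3 and 23.3 (0.92 ± 0.17, adjusted p 0.109). In these 3 genes the groups did not overlap and the 12 h libraries lay close together. Further genes with lower levels in every 12 h library were the transcription factor gene Etv4 (-0.94 ± 0.17), the lipid phosphatase gene Plpp3 (-0.53 ± 0.10), the sterol regulator gene Srebf1 (-0.57 ± 0.11) and the chemokine gene Cxcl12 (-0.62 ± 0.13), with adjusted p from 0.109 to 0.153.

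Markers of reactive astrocytes were uneven among the 12 h libraries, and none was called. Of 16 tested markers of reactive astrocytes, 12 were higher at an unadjusted p under 0.05 and none lower, 13 did not overlap with sham, and the median log2 fold change was 1.66 against 0.00 over all genes tested. DESeq2 called 7 of them, all higher. Timp1, the tissue inhibitor of metalloproteinases, was at 0.236, 0.348 and 0.687 CPM in the sham libraries and at 14.8, 11.7 and 5.55 CPM at 12 h (4.63 ± 0.86, adjusted p 0.109). Every 12 h library was several-fold above the highest sham library, with replicate 3 the lowest. Osmr, the receptor of oncostatin M, was at 2.22, 3.28 and 3.16 CPM and then 24.5, 9.93 and 6.06 (2.22 ± 0.49, adjusted p 0.166). Serpina3n, a protease inhibitor of reactive astrocytes, was at 13.7, 15.5 and 16 CPM and then 92, 65.9 and 36.2 (2.10 ± 0.49, adjusted p 0.171). Both genes descended in the order of replicates 1, 2 and 3, without overlap with sham. Gfap, the intermediate filament protein of astrocytes, was at 248, 235 and 213 CPM and then 809, 445 and 331 (1.19 ± 0.33, adjusted p 0.298).

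The marker median of reactive astrocytes in each 12 h library, on the scale of log2 CPM minus the sham mean, was 2.32, 1.61 and 0.59 for replicates 1, 2 and 3. Without replicate 1 the list median was 1.35 and 9 members had an unadjusted p under 0.05. Markers of astrocytes in general did not move in this way: of 11, 2 were higher and 1 lower at an unadjusted p under 0.05, and the median was -0.11. Besides Gfap, the connexin gene Gjb6 was at 59.4, 55.2 and 60.2 CPM and then 69.4, 98.3 and 75.3 (0.47 ± 0.20, adjusted p 0.582).

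Cytokines and chemokines were at low levels, and none was called. Of 18 tested members, 11 were higher at an unadjusted p under 0.05 and none lower, 11 did not overlap with sham, and the median log2 fold change was 2.75, or 2.54 with the 2 members that had no sham read held at their lower bound. Without 12 h replicate 1 the median was 1.58 and 5 members had an unadjusted p under 0.05. Ccl2, which attracts monocytes, was at 0.236, 0 and 0 CPM in the sham libraries and at 2.96, 1.79 and 0.865 CPM at 12 h (4.46 ± 1.03, adjusted p 0.171). Ccl12, a second ligand of the same receptor, was at 0.236, 0.149 and 0.183 CPM and then 6.65, 0.697 and 0.708 (3.78 ± 0.96, adjusted p 0.256). Ccl2 was above sham in each library, while Ccl12 was far higher in replicate 1 than in the other 2. The same held for Ccl4, at 3.68, 0.305 and 0.275 CPM, and Ccl3, at 3.22, 0.523 and 0.433 CPM, against 0.299 CPM or less in every sham library. Tnf and Ccl7 had no read in the sham group and 20 and 33 reads in the 12 h group, which puts them at least 5.93-fold and 9.72-fold higher against a floor of 3 counts over the group.

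Of 15 tested genes of the interleukin-6 family and its STAT3 feedback none was called, 7 were higher at an unadjusted p under 0.05, none was lower, and the median was 1.18, which became 0.51 with 2 such members without 12 h replicate 1. Bcl3, a nuclear partner of NF-kB, was at 0.754, 0.647 and 0.55 CPM in the sham libraries and at 7.58, 3.92 and 2.05 CPM at 12 h (2.78 ± 0.64, adjusted p 0.171). Socs3, which shuts off the receptor signal, was at 3.44, 3.78 and 3.34 CPM and then 17.4, 9.45 and 6.33 (1.65 ± 0.59, adjusted p 0.498). No sham library overlapped with a 12 h library in either gene. Among 16 genes of NF-kB and Toll-like receptor signalling, 2 were higher at an unadjusted p under 0.05 (Tlr2 at 1.47 ± 0.54 and Myd88 at 0.77 ± 0.32) and the median was 0.55. Of 20 interferon-stimulated genes, 1 was, Gbp2, a guanylate-binding GTPase (1.16 ± 0.46, adjusted p 0.546), and the median was 0.41. That count is near the 3.79% of all genes tested that were higher at such a p.

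In genes of the matrix and the blood-brain barrier, 10 of 18 were higher at an unadjusted p under 0.05, none was lower, 12 did not overlap with sham, and the median was 0.81 (0.66 without 12 h replicate 1). Besides Timp1, Plaur, the urokinase receptor, was at 0.896, 0.697 and 0.962 CPM in the sham libraries and at 6.44, 2.96 and 2.48 CPM at 12 h (2.20 ± 0.55, adjusted p 0.249). Plat, tissue plasminogen activator, was at 24.5, 24.6 and 29.6 CPM and then 41.6, 50.9 and 41.6 (0.77 ± 0.26, adjusted p 0.443), with the groups apart and no library standing out. The macrophage metalloelastase gene Mmp12 had no read in the sham group and 72 at 12 h, at least 21.4-fold higher against the same floor. Its 12 h values were 2.29, 0.566 and 0.197 CPM.

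Microglial genes differed in direction between the resting and the activated sets. Of 11 markers of homeostatic microglia, 7 were lower at an unadjusted p under 0.05 and none higher, 9 lay below sham without overlap, and the median was -0.55. Siglech, a lectin of resting microglia, was at 13.3, 11.1 and 11.1 CPM in the sham libraries and at 5.17, 5.01 and 7.63 CPM at 12 h (-0.996 ± 0.234, adjusted p 0.177). P2ry12, the ADP receptor that guides microglial processes, was at 28.5, 23.8 and 24.3 CPM and then 9.06, 10.7 and 16.2 (-1.09 ± 0.30, adjusted p 0.298). Both genes were low in every 12 h library. Gpr34 was at -0.76 ± 0.21 and the receptor gene Csf1r, on which microglia depend, at -0.47 ± 0.18. The difference did not rest on the outlying 12 h library, since without replicate 1 the list median was -0.58 with 8 members at an unadjusted p under 0.05.

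Of 13 markers of activated myeloid cells, 5 were higher and 1 lower at an unadjusted p under 0.05, with a median of 1.32 and 7 members above sham without overlap. Without 12 h replicate 1 the median was 0.61 and 4 members were higher at such a p. Ch25h, cholesterol 25-hydroxylase, was at 0, 0.149 and 0.321 CPM in the sham libraries and at 1.65, 2.05 and 1.22 CPM at 12 h (3.32 ± 0.86, adjusted p 0.264). Lgals3, galectin-3, was at 0.707, 1.64 and 1.79 CPM and then 12, 4.53 and 3.54 (2.27 ± 0.66, adjusted p 0.347). The scavenger receptor gene Msr1 had 3 reads in the sham group and 226 at 12 h, at 6.31, 2.53 and 0.747 CPM. All 3 genes lay above sham in every 12 h library. The member with a lower value was Apoe, the lipid carrier, at 3239, 2336 and 2475 CPM and then 1558, 2082 and 2023 (-0.51 ± 0.20, adjusted p 0.53). Among 13 complement genes, the receptors of the cleaved peptides led the list: C5ar1 was at 1.18, 1.24 and 1.42 CPM and then 11.3, 6.18 and 3.15 (2.42 ± 0.55, adjusted p 0.171), and C3ar1 was at 1.62 ± 0.48. They were the 2 members with an unadjusted p under 0.05, and the list median was 0.42.

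No leukocyte marker was called. The 11 neutrophil markers summed to 5.56 to 5.95 CPM in the sham group and 5.55 to 6.69 CPM at 12 h. Of these, 7 (Mpo, Elane, Ly6g, Retnlg, Mmp8, Camp and Ngp) had too few reads to be tested, none of the 4 tested had an unadjusted p under 0.05, and S100a9 was at 0, 0.0498 and 0.275 CPM in the sham libraries and 0.593, 0.261 and 0.315 CPM at 12 h. Csf3r made up most of the neutrophil sum, with 317 reads in the sham group and 348 at 12 h. S100a9, S100a8 and Cxcr2 had 7, 8 and 7 reads in the sham group and 28, 17 and 17 at 12 h. The median log2 fold change over the 4 tested was 0.97, and none lay above sham without overlap. For T and B cells, 7 of 12 markers were not tested, among them Cd3e, Cd3g and Cd8a, and Cd3d had no read in the 6 libraries. Their sum was 23.7 to 31.3 CPM in the sham group and 16.1 to 26.6 CPM at 12 h. For monocytes and border macrophages, the sum was 58 to 80.5 CPM in the sham group and 112 to 159 CPM at 12 h. The groups did not overlap in this sum. Of those 11 genes, 2 were higher at an unadjusted p under 0.05, 4 lay above sham without overlap and the median was 0.85. Over all genes tested, 3.79% were higher at such a p and 9.92% lay above sham without overlap. Fn1, fibronectin, made up most of that sum, at 52.8, 68.7 and 71.2 CPM and then 145, 99.9 and 103, and Lyve1 of border macrophages was at 0.189, 0.299 and 0.595 CPM and then 1.78, 2.61 and 0.826. Erythrocyte markers summed to 227 to 317 CPM in the sham group and 206 to 284 CPM at 12 h, and none of the 6 tested had an unadjusted p under 0.05.

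In the vessel wall, genes of endothelial adhesion and leukocyte entry had a median of 0.33, with 3 of 12 higher and 1 lower at an unadjusted p under 0.05. Lcn2, lipocalin-2, was at 0.33, 0.597 and 1.19 CPM in the sham libraries and at 9.7, 19.1 and 3.58 CPM at 12 h (3.91 ± 1.06, adjusted p 0.289), highest in replicate 2. Lcn2 is also counted among the reactive astrocyte markers above. The lower member was Selplg, the P-selectin ligand, which is also a microglial marker (-0.73 ± 0.25). Of the 10 markers of pericytes and smooth muscle none had an unadjusted p under 0.05 and the median was 0.09. Of the 10 of meningeal and perivascular fibroblasts 1 did, with a median of 0.55, but in that list sham replicate 1 was at -0.53 against the sham mean, and the median without it was 0.28.

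No oligodendrocyte marker was called against sham. Of 11 markers, 6 were lower at an unadjusted p under 0.05 and none higher, 6 lay below sham without overlap, and the median was -0.50. Opalin, a glycoprotein of the myelin loops, was at 20.6, 17.3 and 15.6 CPM in the sham libraries and at 8.94, 3.79 and 7.59 CPM at 12 h (-1.39 ± 0.36, adjusted p 0.264). Mag, the myelin-associated glycoprotein, was at 276, 238 and 270 CPM and then 190, 151 and 165 (-0.63 ± 0.17, adjusted p 0.265). Both were lower in every 12 h library, with replicate 2 the lowest. Mbp, myelin basic protein, was at 5288, 3181 and 3649 CPM and then 2423, 2627 and 2837 (-0.62 ± 0.25, adjusted p 0.549), with sham replicate 1 far above the other sham libraries. Without that library the list median was -0.38 and 3 members had an unadjusted p under 0.05. Of 10 markers of oligodendrocyte precursors, 5 were lower at an unadjusted p under 0.05 and the median was -0.32. Enpp6, a phospholipase of newly forming oligodendrocytes, was at 7.21, 7.76 and 6.78 CPM and then 3.64, 3.44 and 4.09 (-0.96 ± 0.20, adjusted p 0.153).

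**Figure D2:**
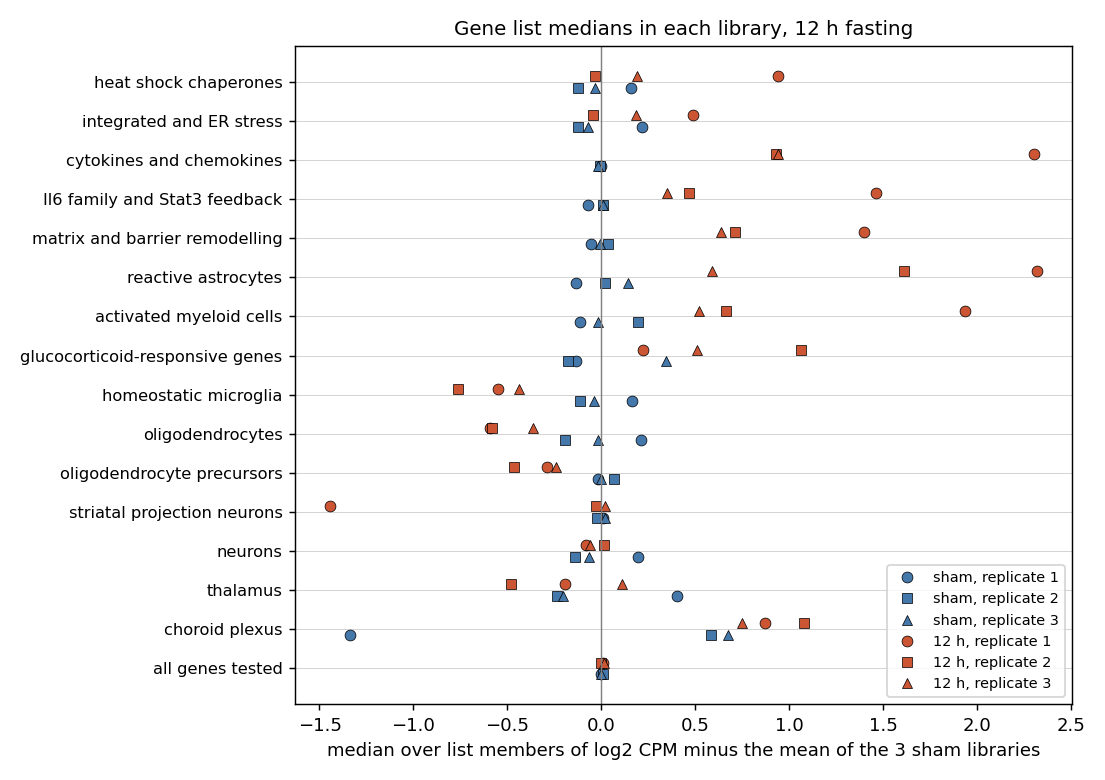
Median over the members of 15 gene lists, and over all genes tested, of log2 CPM minus the mean of the 3 sham libraries (x axis) for each sham (blue) and 12 h (red) library. Reactive astrocytes were at 2.32, 1.61 and 0.59 in 12 h replicates 1, 2 and 3, homeostatic microglia and oligodendrocytes lay below 0 in all 3, and striatal neurons at -1.44 in replicate 1 alone.

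Stress genes divided the 12 h libraries. Of 18 heat shock chaperone genes, 7 were higher at an unadjusted p under 0.05 and the median was 0.45, but without 12 h replicate 1 none was higher, 1 was lower and the median was 0.08. Hspa1b, an inducible HSP70, was at 15.5, 11.9 and 10.4 CPM in the sham libraries and at 384, 16.2 and 19.6 CPM at 12 h (3.48 ± 0.96, adjusted p 0.298). Its near-identical neighbour Hspa1a was at 12.9, 9.06 and 10.7 CPM and then 196, 12.5 and 14. Reads of this pair can be assigned to either copy, so their separate values are uncertain. Hsph1, a nucleotide exchange factor of HSP70, was at 276, 255 and 269 CPM and then 1015, 216 and 296 (0.93 ± 0.40, adjusted p 0.589), and its log2 fold change ran from -0.07 to 1.30 with each library left out. Hspb1, a small heat shock protein, was at 18.9, 13.1 and 12.7 CPM and then 76.7, 23.1 and 23.8 (1.47 ± 0.69, adjusted p 0.626). In all 4 genes replicate 1 was far above both other 12 h libraries, which lay nearer to sham.

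Because these chaperone genes moved together in that library, their promoters are shown for the heat shock element, the site bound by heat shock factors. The sequences are RefSeq's (GRCm38.p6), from 250 bases before to 50 after the start, 5′ to 3′ on the gene's strand. Capitals mark the inverted repeat GAANNTTC, which reads the same on both strands.
Hspa1b, chr17:34959189-34959488, minus strand: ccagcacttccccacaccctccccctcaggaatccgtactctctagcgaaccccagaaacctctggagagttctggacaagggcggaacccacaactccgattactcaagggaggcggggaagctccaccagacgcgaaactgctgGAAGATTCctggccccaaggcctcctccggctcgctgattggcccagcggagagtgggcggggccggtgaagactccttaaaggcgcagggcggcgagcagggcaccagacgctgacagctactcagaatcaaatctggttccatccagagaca
Hsph1, chr5:149636287-149636586, minus strand: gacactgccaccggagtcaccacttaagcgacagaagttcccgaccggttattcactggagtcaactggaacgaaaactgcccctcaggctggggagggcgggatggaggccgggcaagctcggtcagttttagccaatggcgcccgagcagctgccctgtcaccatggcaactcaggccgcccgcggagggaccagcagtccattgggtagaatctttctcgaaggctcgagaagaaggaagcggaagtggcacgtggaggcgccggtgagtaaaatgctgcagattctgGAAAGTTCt
Hspb1, chr5:135887669-135887968, plus strand: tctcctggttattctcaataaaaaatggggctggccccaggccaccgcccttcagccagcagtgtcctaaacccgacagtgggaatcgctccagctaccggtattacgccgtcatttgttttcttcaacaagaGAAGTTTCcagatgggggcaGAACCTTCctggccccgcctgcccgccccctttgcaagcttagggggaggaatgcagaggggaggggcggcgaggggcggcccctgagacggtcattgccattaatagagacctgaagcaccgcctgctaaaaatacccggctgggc

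The repeat occurred in 7.86% of the 32851 promoters of that length in the table. Of the 18 chaperone genes, 14 had a promoter there, with 20 promoters in all. The repeat occurred in 13 of these 20 (65%), and 12 of the 14 genes held it in at least 1 promoter. A match describes these letters only.

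Other stress genes were split in the same way. Atf3, a transcription factor of the integrated stress response, was at 0.896, 0.597 and 0.641 CPM in the sham libraries and at 13.3, 1.31 and 1.46 CPM at 12 h (2.90 ± 1.06, adjusted p 0.503). Hmox1, heme oxygenase-1, was at 3.96, 3.04 and 3.94 CPM and then 53.1, 10.1 and 7.04 (2.68 ± 0.85, adjusted p 0.392). Osgin1, another NRF2 target, was at 0.424, 0.448 and 0.321 CPM and then 4.11, 1 and 1.1 (2.37 ± 0.62, adjusted p 0.265). The 3 genes were highest in replicate 1 and above sham in the other 2 libraries as well. As lists, 5 of 20 genes of integrated and endoplasmic reticulum stress (median 0.23) and 4 of 16 NRF2 targets (median 0.12) were higher at an unadjusted p under 0.05, and 1 member of each had such a p without replicate 1. The growth factor gene Gdf15, which cells secrete under stress, was at 6.73 CPM in replicate 1 and at 0.0871 and 0.197 CPM in replicates 2 and 3, against sham values of 0.0943, 0.299 and 0.229 CPM. In its list of 14 neurotrophic and growth factors, 3 were higher at an unadjusted p under 0.05 and the median was 0.17.

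Among p53 targets and apoptosis genes, 6 of 17 were higher at an unadjusted p under 0.05 and the median was 0.43. Cdkn1a, the cell cycle inhibitor p21, was at 14.2, 13.4 and 20 CPM in the sham libraries and at 69.7, 117 and 39 CPM at 12 h (2.24 ± 0.42, adjusted p 0.109), without overlap and with replicate 2 the highest. Ccng1, cyclin G1, was at 58.7, 51.2 and 51.8 CPM and then 85.7, 68.2 and 64.6 (0.43 ± 0.14, adjusted p 0.438). The metallothionein genes Mt2 and Mt1, which bind zinc, were the 2 of 7 members of their list with an unadjusted p under 0.05. Mt2 was at 60, 51.3 and 62 CPM and then 163, 174 and 80.1 (1.27 ± 0.43, adjusted p 0.446).

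Genes that respond to glucocorticoids were instead highest in 12 h replicate 2. Of 15, 6 were higher at an unadjusted p under 0.05, the median was 0.53, and the medians by library were 0.22, 1.06 and 0.51 for replicates 1, 2 and 3. Without replicate 2 the list median was 0.23 and 4 members had such a p. Fkbp5, an immunophilin that dampens the glucocorticoid receptor, was at 35.7, 35 and 41.4 CPM in the sham libraries and at 48.2, 122 and 53.2 CPM at 12 h (0.99 ± 0.31, adjusted p 0.381). Plin4, a lipid droplet protein, was at 6.88, 7.36 and 14.4 CPM and then 20.4, 93.8 and 34.9 (2.38 ± 0.60, adjusted p 0.249). Both were above every sham library in all 3, by far the most in replicate 2.

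No gene of fuel metabolism or the clock was called. Pdk4, the kinase that shuts glucose carbon out of mitochondria, was at 8.82, 10.7 and 9.39 CPM in the sham libraries and at 12.6, 25.3 and 16 CPM at 12 h (0.90 ± 0.26, adjusted p 0.347). Angptl4, a fasting-induced inhibitor of lipoprotein lipase, was at 1.37, 1.94 and 2.02 CPM and then 6.27, 11.8 and 6.17 (2.19 ± 0.70, adjusted p 0.415). Across the 19 genes of ketone and fatty acid oxidation, 3 were higher and 1 lower at an unadjusted p under 0.05 and the median was -0.005. In cholesterol and fatty acid synthesis 3 of 19 were lower, Fasn, Scd2 and Srebf2, and the median was -0.04. Fasn, fatty acid synthase, was at 446, 494 and 509 CPM and then 398, 417 and 373 (-0.29 ± 0.10, adjusted p 0.503). Of the 19 clock genes, Dbp was at 121, 109 and 113 CPM and then 38.4, 83.9 and 66.7 (-0.86 ± 0.24, adjusted p 0.298), and Nr1d1, the repressor REV-ERB alpha, at 141, 140 and 145 CPM and then 88.8, 108 and 88.5 (-0.58 ± 0.17, adjusted p 0.323). Cry1 (0.51 ± 0.16) and Arntl (0.48 ± 0.19), which peak at the other side of the cycle, were higher. The labels used here do not give the clock time of collection, and its part in these values was not tested.

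Neuronal markers as a whole stayed near sham, with a median of -0.04 over 12 and 1 lower at an unadjusted p under 0.05. Markers of striatal projection neurons had a median of -0.34, but the medians by library were -1.44, -0.03 and 0.02 for replicates 1, 2 and 3, and without replicate 1 the list median was 0.02. Drd2, the D2 dopamine receptor, was at 60.8, 66.5 and 65.7 CPM in the sham libraries and at 23.3, 58.1 and 65.5 CPM at 12 h. Adora2a, an adenosine receptor of striatopallidal neurons, was at 169, 139 and 134 CPM and then 45.6, 118 and 123 (-0.62 ± 0.50, adjusted p 0.807). Replicates 2 and 3 were close to sham in both genes. Penk, proenkephalin, and Pde1b, a phosphodiesterase, were the 2 of 12 members with an unadjusted p under 0.05 (-0.76 ± 0.33 and -0.54 ± 0.23). Replicate 1 thus held the lowest striatal levels and the highest list medians of chaperones, cytokines and reactive astrocytes of the 3.

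For the other regions, none of 10 thalamic, 10 choroid plexus and 8 tested ependymal markers, 12 cortical layer markers and 10 markers of inhibitory interneurons had an unadjusted p under 0.05. Their medians were -0.23, 0.67, -0.24, 0.06 and -0.18. Choroid plexus markers summed to 247 CPM in sham replicate 1, 1052 and 1379 CPM in the other sham libraries and 1369 to 1789 CPM at 12 h. Prkcd, a kinase of thalamic relay neurons, was at 149 CPM in sham replicate 1, at 45 and 47.6 CPM in replicates 2 and 3 and at 32.1 to 43.1 CPM at 12 h. Of 10 hippocampal markers 2 were higher at an unadjusted p under 0.05, led by the neuronal pentraxin gene Nptx1. Nptx1 was at 318, 301 and 324 CPM and then 499, 522 and 384 (0.57 ± 0.19, adjusted p 0.446). The 10 hypothalamic markers had a median of 0.07. Of these, 1 was lower at an unadjusted p under 0.05 and 2 lay below sham without overlap. The hypothalamic peptide genes Hcrt and Pmch differed between libraries of the same group, with Hcrt at 0, 4.68 and 4.9 CPM in the sham libraries and at 0.254, 0.174 and 0.157 CPM at 12 h. Pmch had 106 reads in the sham group and 10 at 12 h, with every 12 h library below every sham library. Such regional markers can differ with the level of the cut, and their part in the results was not tested.

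Genes of the synapse and of ion channels had medians of 0.02 and 0.10. Shank3, a scaffold of excitatory synapses, was at 516, 429 and 478 CPM in the sham libraries and at 349, 400 and 402 CPM at 12 h (-0.30 ± 0.10, adjusted p 0.446). Kcna2, an axonal potassium channel, was at 35.3, 53.6 and 48.2 CPM and then 70.4, 70.3 and 61.6 (0.56 ± 0.25, adjusted p 0.6). Of 24 immediate early genes, 5 were higher at an unadjusted p under 0.05 and the median was 0.27, and Fos itself was at 12.2, 17.4 and 27.8 CPM and then 36.9, 14.6 and 29.1, with overlapping groups. In hypoxia and glycolysis, 1 of 16 was higher and 2 lower, with a median of 0.08, led by the lower Ndrg1 at 115, 87.7 and 89.8 CPM and then 67.3, 54.2 and 65.6 (-0.65 ± 0.17, adjusted p 0.264). For the cell cycle (median 0.01), oxidative phosphorylation (-0.11), autophagy and the lysosome (0.03) and insulin and mTOR signalling (0.16), no more than 2 members had an unadjusted p under 0.05.

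Against the 3 h stage of the same regimen, the 12 h libraries differed in 5896 genes, 2986 higher and 2910 lower (35.9% of 16426 in all, 18.2% and 17.7% by direction). Genes of the early injury response were lower than at 3 h: 20 of 24 immediate early genes fell between 3 and 12 h and none rose (median -1.56), 12 of 18 chaperone genes fell and 1 rose (-0.80), and 9 of 17 p53 targets fell (-0.82). Atf3 fell from 114 ± 58.1 to 5.35 ± 6.88 CPM (log2 fold change -4.42 ± 0.86, adjusted p 0.00135), and Hspa1a from 1212 ± 785 to 74.1 ± 105 CPM (-4.03 ± 0.84, adjusted p 0.0021). The neutrophil chemokine gene Cxcl1 fell from 3.57 ± 2.16 to 0.2 ± 0.178 CPM (-4.15 ± 1.05, adjusted p 0.00648), and of 18 cytokines and chemokines 5 fell and none rose (median -0.97). In cholesterol and fatty acid synthesis 14 of 19 genes fell and 1 rose (-0.68), and in the clock 10 of 19 fell and 3 rose (-0.70), among them Nfil3 at -2.85 and Ciart at -1.98. Krt6a, a keratin, and Pmch also fell.

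Ion channel, synaptic, striatal and cortical layer genes more often rose than fell from 3 h, while the other neuronal lists did not. Among 12 cortical layer markers 4 rose and 1 fell (median 0.375). Of 18 ion channel genes 13 rose and 2 fell (median 0.82), of 18 synaptic genes 10 rose and 2 fell (0.50), and of 12 striatal markers 6 rose and none fell (0.90). Of 12 general neuronal markers 1 rose and 3 fell (-0.18), of 10 interneuron markers 2 rose and 3 fell (-0.21), and no hippocampal marker was called (-0.24). Kcna2 was at 2.11 and the GABA receptor gene Gabrb2 at 1.86 on the log2 scale, with adjusted p of 9.4e-05 and 0.000263. The genes of largest rise included Oxt, oxytocin, which rose from 1.25 ± 0.671 to 31.4 ± 6.47 CPM (4.65 ± 1.06, adjusted p 0.00365) and Sim1, a transcription factor of the hypothalamus, which rose from 0.0874 ± 0.0805 to 2.14 ± 0.129 CPM (4.52 ± 0.82, adjusted p 0.000946). Oxt was already present in the sham group, with 1430 reads there and 2279 at 12 h. Hypothalamic markers can differ with the level of the cut, and its part in these rises was not tested. Scgb3a1, Eomes and Gpr139 followed. Scgb3a1 and Eomes were uneven among the 12 h libraries, at 1.05 ± 0.901 and 1.34 ± 1.53 CPM. Without replicate 3 of the 3 h group the count was 3921.

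The 24 h stage differed from 12 h in 6989 genes, 3532 higher and 3457 lower (42.5% in all, 21.5% and 21.0% by direction). Between 12 and 24 h the inflammatory lists rose: 14 of 18 cytokines and chemokines rose and none fell (median 2.30), as did 19 of 20 interferon-stimulated genes (2.32), 12 of 13 activated myeloid markers (2.39) and 12 of 16 reactive astrocyte markers (1.53). Heat shock chaperones rose again, 16 of 18 with 1 lower (1.25), and so did 12 of 17 p53 targets (1.48) and 14 of 20 stress response genes (0.83). Gdf15 rose from 2.34 ± 3.81 to 50.2 ± 21.8 CPM (4.43 ± 0.86, adjusted p 0.000951), Klk6, a serine protease of oligodendrocytes, from 4.26 ± 2.6 to 74.1 ± 37.9 CPM (4.12 ± 0.51, adjusted p 0.000105) and Fgf21, a hormone of fasting, from 0.0988 ± 0.171 to 2.46 ± 0.684 CPM (4.58 ± 0.85, adjusted p 0.000903). Cd5l, a macrophage apoptosis inhibitor, and Ucn2, a urocortin, also rose.

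All 12 striatal markers fell between 12 and 24 h (median -2.82). Adora2a fell by 3.44 and Rgs9, a regulator of dopamine receptor signalling, by 2.98 on the log2 scale. Synaptic genes fell in 14 of 18 cases (-1.05) and ion channel genes in 14 of 18 (-0.87), with no rise in either. Cd4 fell from 17.8 ± 10.3 to 0.772 ± 0.587 CPM (-4.53 ± 0.56, adjusted p 0.000106), and Impg1, Epyc, Ankk1 and Sh3rf2 were the other genes of largest fall. In the oligodendrocyte list 5 of 11 rose and none fell (0.52), including Opalin at 2.02 ± 0.36 and Mag at 1.33 on the log2 scale.

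**Figure D3:**
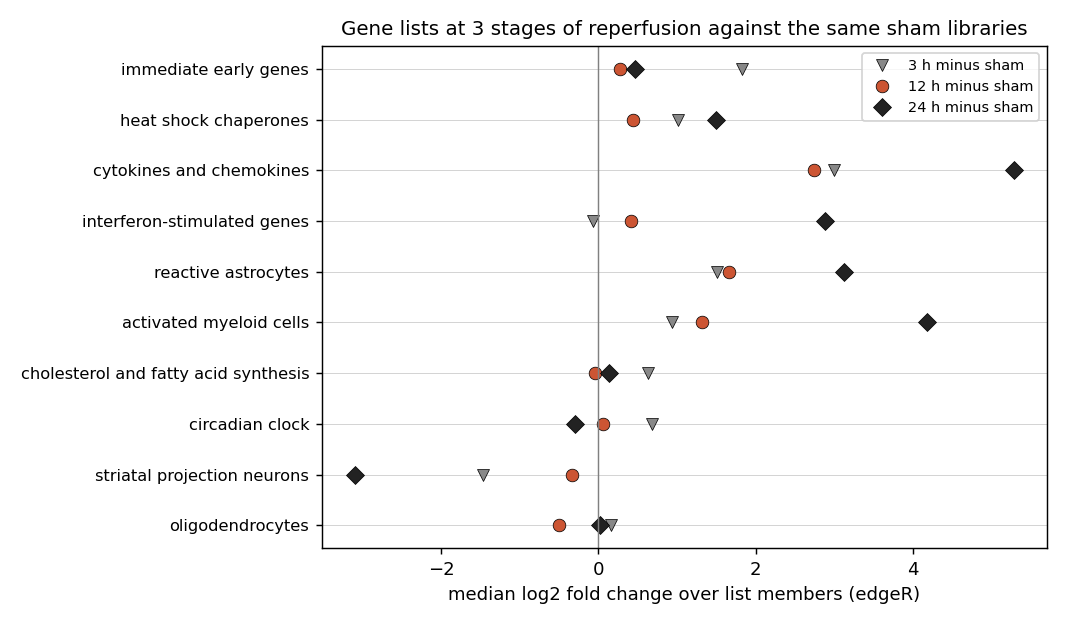
Median log2 fold change over list members at 3 h (grey triangles), 12 h (red circles) and 24 h (black diamonds), each against the same 3 sham libraries of the 12 h fasting regimen. The 12 h medians lie nearer to 0 than both neighbours for immediate early genes (0.27), heat shock chaperones (0.45), cytokines (2.75) and striatal markers (-0.34). They do not for oligodendrocytes (-0.50), reactive astrocytes (1.66), activated myeloid cells (1.32) and interferon-stimulated genes (0.41).

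Because 3, 12 and 24 h share the sham libraries, their values against sham are only set side by side. Against sham, 4834 genes were called at 3 h (29.4%), 2 at 12 h and 6680 at 24 h (40.7%). The list medians at 3, 12 and 24 h were 1.83, 0.27 and 0.47 for immediate early genes and 1.01, 0.45 and 1.49 for chaperones. They were -1.47, -0.34 and -3.10 for striatal markers and 0.16, -0.50 and 0.03 for oligodendrocytes. For reactive astrocytes they were 1.51, 1.66 and 3.13 and for activated myeloid cells 0.93, 1.32 and 4.18. Interferon-stimulated genes were at -0.066, 0.414 and 2.885.

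Alpl and Itm2a were picked for their low values in the same 12 h libraries, so their differences from the other stages are no independent evidence and are given as values. Alpl was at 12.4, 14.4 and 12.7 CPM after ischemia alone, 9.89, 10.3 and 10.6 at 3 h, 5.8, 5.88 and 7.51 at 12 h, 8.77, 12.9 and 9.33 at 24 h and 16.7, 13.3 and 11.7 at 72 h. Its 12 h values lay below those of every other stage. Its log2 difference was -0.68 ± 0.17 from 3 to 12 h and 0.69 ± 0.17 from 12 to 24 h. Itm2a was at 23.2, 34.9 and 23.2 CPM after ischemia alone, 36.5, 28.9 and 27.9 at 3 h, 16, 14.3 and 16.4 at 12 h, 20.3, 24.6 and 18 at 24 h and 42.4, 47.1 and 48.6 at 72 h. Its log2 difference was -0.99 ± 0.16 from 3 to 12 h and 0.43 ± 0.16 from 12 to 24 h, with no 12 h value above that of another stage.

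**Figure D4:**
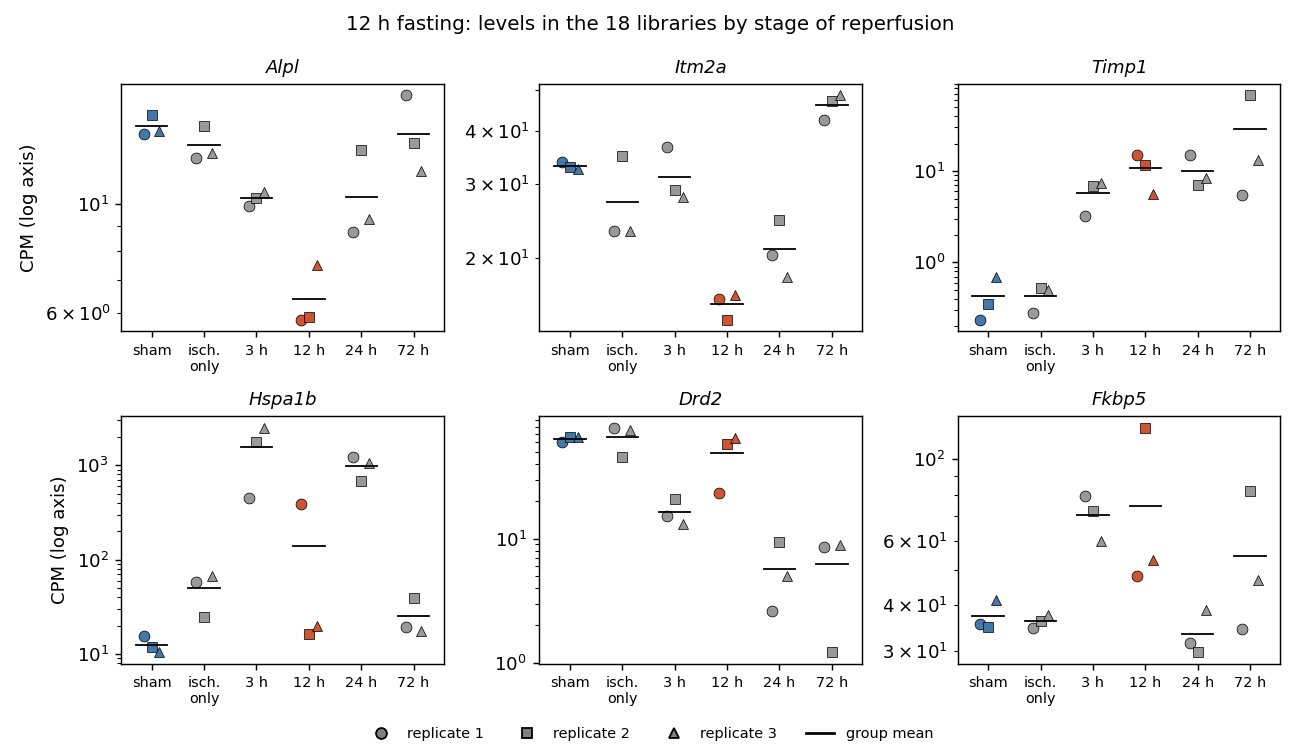
CPM (log axis) of 6 genes in the 18 libraries of the 12 h fasting regimen by stage; sham is blue, 12 h red, other stages grey, symbols mark the replicate number and lines the group mean. Alpl and Itm2a are lowest at 12 h, Hspa1b is high in 1 of the 3 12 h libraries (384 CPM) and Drd2 low in the same one (23.3 CPM), while Fkbp5 is highest in replicate 2 (122 CPM).

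Whether the 12 h response differed with the feeding regimen was tested directly. Against AL no gene was called by edgeR (0.0% of 16901), with 334 higher (1.98%) and 409 lower (2.42%) at an unadjusted p under 0.05, and DESeq2 called none either, while limma with library weights called 3. Nat8f5 had the lowest p (difference of 3.08 ± 0.56 on the log2 scale, adjusted p 0.117), followed by Samd14 (-0.74 ± 0.17) and A430108G06Rik (1.94 ± 0.47), both at an adjusted p of 0.994. Against the mean of AL, EOD and IF16 again no gene was called (0.0% of 17268), with 157 higher (0.909%) and 122 lower (0.707%) at an unadjusted p under 0.05, none by DESeq2 and 76 by limma with library weights. The lowest p there belonged to Fam205a4, A430108G06Rik and Epcam, each at an adjusted p of 1. A difference between regimens was thus not detectable with 3 libraries a group, which does not show that the responses were alike.

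In the other regimens' own 12 h comparisons, which use other libraries, 263 genes were called under AL (1.6%), 10 under EOD (0.0609%) and 14 under IF16 (0.0856%). Alpl was at 13.6, 14.5 and 15.8 CPM in the AL sham libraries and 7.12, 4.89 and 6.03 at 12 h (-1.27 ± 0.22, adjusted p 0.0159). In EOD it was at 14.7, 17.3 and 15.4 CPM and then 7.1, 7.01 and 6.21 (-1.22 ± 0.24, adjusted p 0.057), and in IF16 at 13.9, 14.2 and 13.1 CPM and then 12.6, 9.2 and 5.44 (-0.59 ± 0.22, adjusted p 0.236). Its groups did not overlap in any of the 4 regimens. Itm2a fell under AL (-1.82 ± 0.25, adjusted p 0.00977) and EOD (-1.63 ± 0.23, adjusted p 0.0158) and was at -0.65 ± 0.31 under IF16 (adjusted p 0.333). The difference of the IF12 response from that of AL was 0.11 ± 0.28 for Alpl and 0.75 ± 0.30 for Itm2a, both at an adjusted p of 0.994.

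The 12 h libraries of the other regimens also differed among themselves. Hspa1b was at 531, 31.8 and 1848 CPM in the 12 h libraries of AL, 40.8, 468 and 1746 in those of EOD and 19.6, 451 and 29.6 in those of IF16, against 18.6 CPM or less in all their sham libraries. Timp1 was at 37.3, 4.32 and 18.4 CPM, 4.69, 8.68 and 11.6 CPM and 1.48, 5.18 and 4.39 CPM at 12 h in the same order, all above the sham values of 0.892 CPM or less. The list median of reactive astrocytes at 12 h was 1.66 in IF12, 3.09 in AL, 2.68 in EOD and 1.75 in IF16. For striatal markers it was -0.34, -1.69, -2.01 and -1.02, and for oligodendrocytes -0.50, -0.35, -0.62 and 0.27.

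**Figure D5:**
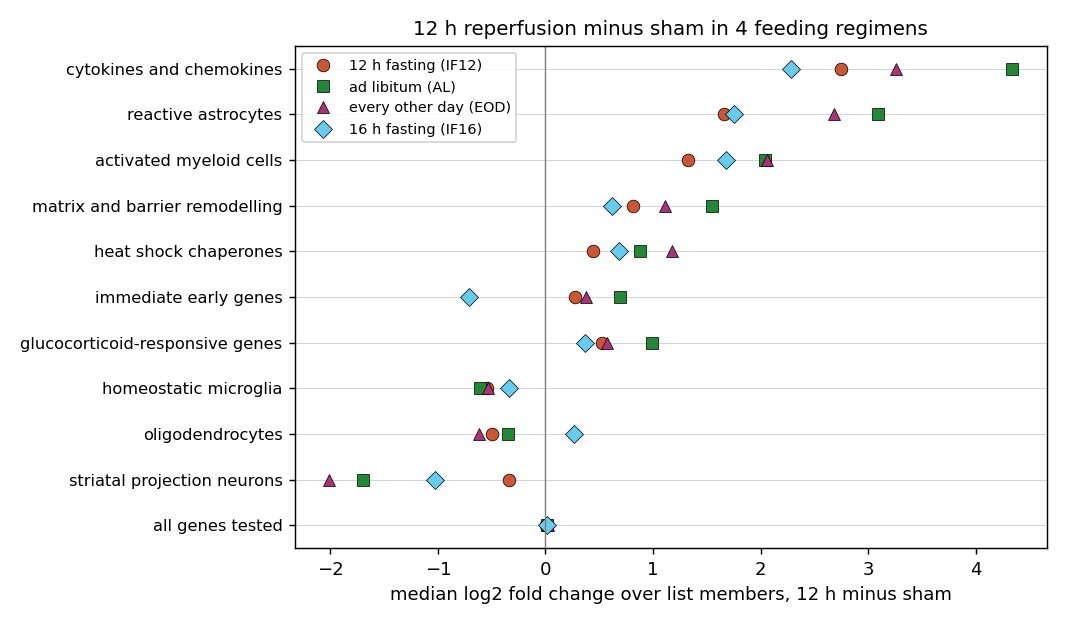
Median log2 fold change of 12 h against sham over the members of 10 gene lists, and over all genes tested, in 4 feeding regimens. IF12 (red circles) has the smallest reactive astrocyte median (1.66) and the striatal median nearest to 0 (-0.34). The reactive astrocyte median of IF16 (1.75) is close, within the 0.59 to 2.32 of the IF12 12 h libraries. edgeR called no gene different between IF12 and AL or the mean of the other 3.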

How the data were processed

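The authors deposited whole-number counts per gene for 72 libraries, with FPKM values beside them. The tools named are CASAVA, TopHat2 and DESeq2, with GRCm38/mm10 as the build, per the submitters' processing notes. Their versions, the annotation, how reads were counted and whether by strand is not given in the sources used here, so that genes that overlap or have near-identical copies are uncertain. The deposited FPKM values equalled counts over gene length and library total, and were used for no test. RNA had an integrity number above 7, per the labels' protocols.

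Counts were tested in R 4.3.3 with edgeR 4.0.16 (TMM, filterByExpr, glmQLFit and glmQLFTest, Benjamini-Hochberg adjustment over all genes tested). The comparison with sham and those with 3 and 24 h used the 18 IF12 libraries, which share 1 estimate of the spread. The difference from AL used 36 libraries and that from the mean of the other regimens all 72. CPM were TMM-scaled, and log2 CPM used a prior count of 2. Libraries of a group differed by more than sampling noise, at a chi-square of 5.18 to 41.0 per gene. DESeq2 1.42.0, limma 3.58.1 with library weights, other filters and scalings, a replicate block and leaving out each library were alternatives, of which robust estimation and limma were chosen after seeing the data.

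The gene lists and members were chosen with earlier results of these data known. The rule named the called genes, up to 2 uncalled members with the lowest p in each list, and for the other comparisons the genes of largest change or lowest p. Other genes were chosen after their values were seen. Symbols and coordinates came from GENCODE M21, and promoters from RefSeq.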

Additional observations from a re-analysis of the deposited data

Results flagged for a closer look

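Alpl and Itm2a, the called genes, also differed between 12 h and both neighbouring stages by a direct test of the difference, which is why they are listed here. For Alpl the difference of 12 h from 3 h was -0.68 and that of 24 h from 12 h was 0.69 on the log2 scale. For Itm2a these differences were -0.99 and 0.43. All 4 had an edgeR adjusted p under 0.05, but the genes were picked for low values in the same 12 h libraries, so these tests are not independent of that choice. Groups of 3 libraries were too small for the test of single outlying samples.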

How the results depend on the processing

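Against sham, the count of called genes was 100 with DESeq2 (322 adjusted p not given), 23 with no filter on low counts, 9 with only the compared groups in the fit, 1 with all 72 libraries in the fit, 817 with limma and library weights, and 0 with each library left out in turn (0 to 0). With the replicate block it was 0, and the adjusted p of Alpl and of Itm2a was 0.0716. Same-numbered 12 h and sham libraries correlated at -0.092 to 0.046 in their deviations from the group means. These values show no pairing by number, but with 3 libraries a group they cannot exclude one. For 12 h against 3 h, limma gave 9413 calls, and leaving out a library 3921 to 5223. For the difference of the IF12 response from AL limma gave 3 calls, and from the mean of the other regimens 76. The causes were not tested. Of 93 alternative counts, 77 stayed within 1.5 times the reported count or at 0, 9 were lower and 7 higher. Of 1818 alternative values of 126 named genes, none reversed a call, 23 lost and 85 gained one, and 50 uncalled values moved by more than their standard error. Among these, the uncalled Gdf15 was at -0.50 without 12 h replicate 1. Of 660 alternative list medians, 60 moved by more than the spread between libraries. Genes with a few reads in the sham group, such as cytokines, are limited by depth.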
